A study of Mus musculus with 32 samples.

Results

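38 protein-coding genes of the mouse *Hox* clusters were followed through 11 culture conditions of mouse embryonic stem cells (ESCs). Members were taken by symbol (*Hoxa*, *Hoxb*, *Hoxc* or *Hoxd* and a number, without antisense transcripts) from the 51826 genes of the count table. There were 10 *Hoxa* genes on chromosome 6, 10 *Hoxb* genes on chromosome 11, 9 *Hoxc* genes on chromosome 15 and 9 *Hoxd* genes on chromosome 2. Bulk RNA sequencing gave 32 libraries, 3 in each condition except Etv5-KO at N16h, which had 2.

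Every line was RGd2, an ESC line in which a short-lived GFP reports the activity of the naive marker gene *Rex1*, or a knockout made from it. RGd2 libraries came from 2i (CHIRON, an inhibitor of GSK3, together with a MEK inhibitor), from 2i at passage 5 (2i-p5), from N2B27 basal medium with no inhibitor for 16 h (N16h) or 72 h (N72h), and from CHIRON alone at passage 2 (CHp2). Etv5-KO and Rbpj-KO single knockouts were each sampled in 2i and at N16h. The double knockout of *Etv5* and *Rbpj* (ER-dKO) was kept in CHIRON alone to passage 5 (CHp5), and the triple knockout of *Etv5*, *Tcf3* and *Rbpj* (ETR-tKO) was kept in N2B27 to passage 5 (Np5). Within a group each knockout library came from a different clone, and clones of the single knockouts recurred between 2i and N16h, whereas each RGd2 group held 2 libraries of the parental line and 1 of a clonal derivative. No knockout was sampled in both CHIRON alone and N2B27, so genotype and medium cannot be told apart among the passage 5 mutants.

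*Hox* genes encode homeodomain transcription factors that give cells their position along the head-to-tail axis. Within a cluster they lie in order of paralog number, and low-numbered genes are switched on earlier and further forward in the embryo than high-numbered ones. In ESCs the clusters are held largely silent by Polycomb complexes. Wnt signalling, which CHIRON mimics by blocking GSK3, opens *Hox* expression in the caudal epiblast of the embryo, in part through the Cdx factors. Retinoic acid acts on several of the low-numbered genes directly.

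*Hoxb1*, at the early end of its cluster, had the highest level of the 38 in RGd2 CHp2. How far the reads of related genes could be told apart was checked on their transcripts (GRCm38). Among all pairs of the 6 *Hox* genes described in detail, the longest run of bases that transcripts shared was 20, between *Hoxa2* and *Hoxb1*. *Hoxb1* and its paralog *Hoxd1* matched at 135 of 180 bases in their most alike coding window (75.0%), and their longest shared run was 17 bases.

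Promoters are shown for the described genes that are in the RefSeq table (GRCm38.p6), as members that were all higher in CHp2, over the 250 bases before the start site. Capitals mark TTTATG, the letters searched for CDX binding, in *Hoxa7*, a match to TGATNNAT (PBX-HOX) in *Hoxa2*, where it lies on the other strand, and in *Hoxb1* a match to CTTTGT (SOX), then ATGCNAAT (octamer), then TGATNNAT. *Hoxa5* held none of the letters searched. Coordinates are chr6:52164832-52165081 for *Hoxa2*, chr6:52204588-52204837 for *Hoxa5* and chr6:52218574-52218823 for *Hoxa7*, all on the minus strand, and chr11:96365508-96365757 on the plus strand for *Hoxb1*.
Hoxa2: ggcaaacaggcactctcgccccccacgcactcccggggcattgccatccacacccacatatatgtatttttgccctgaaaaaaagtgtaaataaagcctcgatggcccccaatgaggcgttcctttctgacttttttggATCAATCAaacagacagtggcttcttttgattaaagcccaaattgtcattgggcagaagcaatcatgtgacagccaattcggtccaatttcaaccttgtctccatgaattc
Hoxa5: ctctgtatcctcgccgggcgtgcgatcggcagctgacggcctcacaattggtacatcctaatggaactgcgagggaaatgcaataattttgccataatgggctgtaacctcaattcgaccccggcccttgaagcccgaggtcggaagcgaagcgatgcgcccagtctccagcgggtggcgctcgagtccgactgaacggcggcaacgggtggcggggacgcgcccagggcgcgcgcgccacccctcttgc
Hoxa7: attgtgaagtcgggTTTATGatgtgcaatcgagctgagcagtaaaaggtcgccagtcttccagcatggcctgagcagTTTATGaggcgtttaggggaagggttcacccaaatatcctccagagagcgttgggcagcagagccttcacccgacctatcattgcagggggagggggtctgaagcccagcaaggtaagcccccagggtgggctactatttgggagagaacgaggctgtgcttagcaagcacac
Hoxb1: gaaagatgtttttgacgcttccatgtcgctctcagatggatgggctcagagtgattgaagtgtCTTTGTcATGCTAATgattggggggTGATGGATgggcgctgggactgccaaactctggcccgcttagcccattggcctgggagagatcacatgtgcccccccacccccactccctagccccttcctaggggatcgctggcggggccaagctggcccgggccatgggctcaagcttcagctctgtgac
On both strands of 32851 promoters of this length, TTTATG was in 10.8%, TGATNNAT in 7.7%, ATGCNAAT in 2.9% and CTTTGT in 16.5%. Other letters searched were CTTTGAT (TCF/LEF, in 3.2%), AGGTCA (nuclear receptors, in 14%), TGGGAA (RBPJ, in 21.6%) and CCGGAAG (ETS, in 6.9%), and none of these was in the 4 promoters. A match describes letters only, and the start of *Hoxa7* in RefSeq differs from the end of the gene in the count table.

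Libraries held 5986857 to 71439411 counts on genes (median 29940141), so a low *Hox* level was measured with few reads in the shallowest library, RGd2 2i replicate 33. *Etv5* was at 9.76 to 30.7 FPKM (counts scaled to gene length and to the library's total on genes) in the 11 libraries with it deleted and at 88.5 to 156 in the 21 others. *Rbpj* was at 2.72 to 9.88 FPKM in the 12 targeted libraries and 9.80 to 55.7 in the 20 others, so these ranges touched. *Tcf7l1*, the current symbol of *Tcf3*, was at 0.294 to 1.10 FPKM in ETR-tKO and 2.06 to 13.9 in the other 29 libraries. Each of 4 general pluripotency genes averaged above 1 FPKM in CHp2, N72h, 2i-p5 and both passage 5 mutants. The summed level of 8 naive ESC markers ran from 733 to 825 FPKM in 2i-p5, ER-dKO and ETR-tKO, from 275 to 309 in CHp2 and from 55.5 to 59.6 at N72h.

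Most *Hox* genes were close to silent in every condition. Of 38, 6 averaged at least 1 FPKM in any condition. *Hoxa2*, *Hoxa5*, *Hoxa7*, *Hoxb1* and *Hoxb2* reached it in CHp2 alone among the 11, and *Hoxc13* in Etv5-KO 2i alone. The summed level of the 38 genes was 22.1 to 27.6 FPKM in CHp2, 3.76 to 4.09 in 2i, 3.23 to 4.24 in 2i-p5, 2.52 to 2.80 in N16h and 0.409 to 0.773 at N72h. The passage 5 mutants did not hold the CHp2 level: ER-dKO CHp5 summed to 0.474 to 0.829 FPKM and ETR-tKO Np5 to 0.840 to 1.27.

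**Figure D1:**
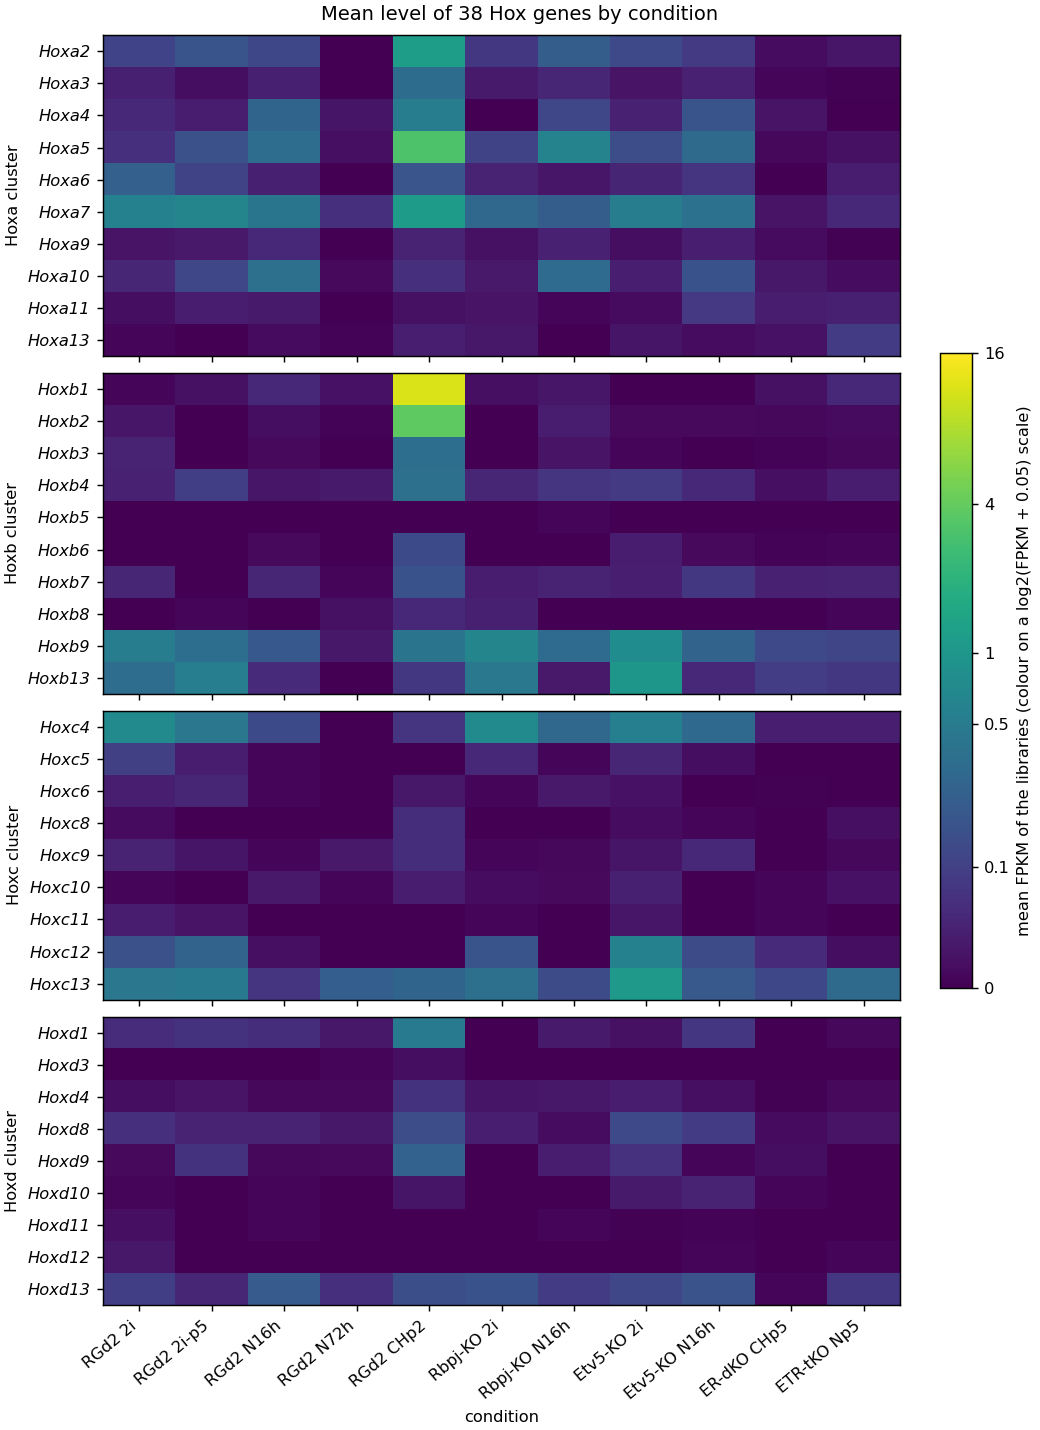
Mean FPKM of each of 38 Hox genes (rows, by cluster) in each of the 11 conditions (columns), with colour on a log2(FPKM + 0.05) scale. Hoxb1 and Hoxb2 stand out in RGd2 CHp2 only, at means of 11.4 and 3.74 FPKM.

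The comparison of CHp2 with N72h asks what CHIRON did in cells of the same genotype that had left 2i. 5 *Hox* genes rose, *Hoxa2*, *Hoxa5*, *Hoxa7*, *Hoxb1* and *Hoxb2*, and none fell (0 fell at an unadjusted p under 0.05 by edgeR, and 0 by DESeq2). A call needed a Benjamini-Hochberg adjusted p under 0.05 in edgeR's quasi-likelihood test over 18892 genes and a mean of at least 1 FPKM in either group. Of the 12153 tested genes that averaged at least 1 FPKM in either group, 19.9% were called higher and 17.3% lower, and the other background shares below count over genes of the same kind. Only 5 *Hox* genes met that level here, all of them through CHp2, so that their count gives no support of its own and the values below are what describes the change. The same limit holds for the counts of called genes in the other comparisons with CHp2, where these 5 genes also reached 1 FPKM through CHp2 alone. Time and passage differed along with the medium.

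*Hoxb1* (ENSMUSG00000018973.2, mm10 chr11:96365752-96368256, plus strand), which marks the fourth rhombomere and keeps its own expression going together with Pbx partners, was at 11.6, 12.6 and 9.90 FPKM in CHp2. It had 3 counts in all at N72h (0, 0.0269 and 0.0221 FPKM). Every CHp2 library lay far above every N72h library, with a ratio of spike-in scaled counts of 722 (95% exact counting interval 246 to 3506). Such intervals cover counting error only. The fitted log2 difference was 9.32 (SE 0.53, edgeR adjusted p = 5.22e-17). *Hoxb2* (ENSMUSG00000075588.6, chr11:96350525-96354012, plus strand), a hindbrain gene that Hoxb1 activates, was at 3.83, 3.98 and 3.41 FPKM in CHp2 and at 0, 0 and 0.0074 at N72h. It had 1 count at N72h against 591 in CHp2, a ratio of 1063 (interval 190 to 42069) and a fitted log2 difference of 9.62 (SE 0.66, edgeR adjusted p = 2.60e-14).

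*Hoxa2* (ENSMUSG00000014704.10, chr6:52162417-52164831, minus strand), which patterns the second pharyngeal arch, was at 1.43, 1.51 and 0.744 FPKM in CHp2, and no N72h library held a count. Against a floor of 3 counts over the group it was at least 60.6-fold higher (edgeR adjusted p = 1.51e-07). CHp2 replicate 6, the clonal line, was the lowest of the 3 for this gene, and 15% of the gene's exon bases were shared on the same strand with *Gm28308*. *Hoxa5* (ENSMUSG00000038253.6, chr6:52201754-52204587, minus strand), needed for lung and neck vertebrae, was at 2.62, 3.15 and 3.64 FPKM in CHp2 and at 0.0248, 0 and 0.0137 at N72h. With 2 counts at N72h its ratio was 238 (interval 65.3 to 1979) and its fitted log2 difference 7.66 (SE 0.72, edgeR adjusted p = 3.11e-11). *Hoxa7* (ENSMUSG00000038236.8, chr6:52214491-52221854, minus strand), a gene of the thoracic region, was just past the level threshold at 1.13, 1.20 and 1.11 FPKM in CHp2. At N72h it was at 0.0646, 0.065 and 0.0447 FPKM, a log2 difference of 4.42 (SE 0.50, edgeR adjusted p = 2.58e-09). *Hoxc13* (ENSMUSG00000001655.6, chr15:102921103-102928814, plus strand), a gene of hair and nails at the late end of its cluster, was at 0.258, 0.209 and 0.347 FPKM in CHp2 and at 0.132, 0.279 and 0.271 at N72h. Those ranges overlapped, and the log2 difference was 0.29 (SE 0.49, edgeR adjusted p = 0.708).

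**Figure D2:**
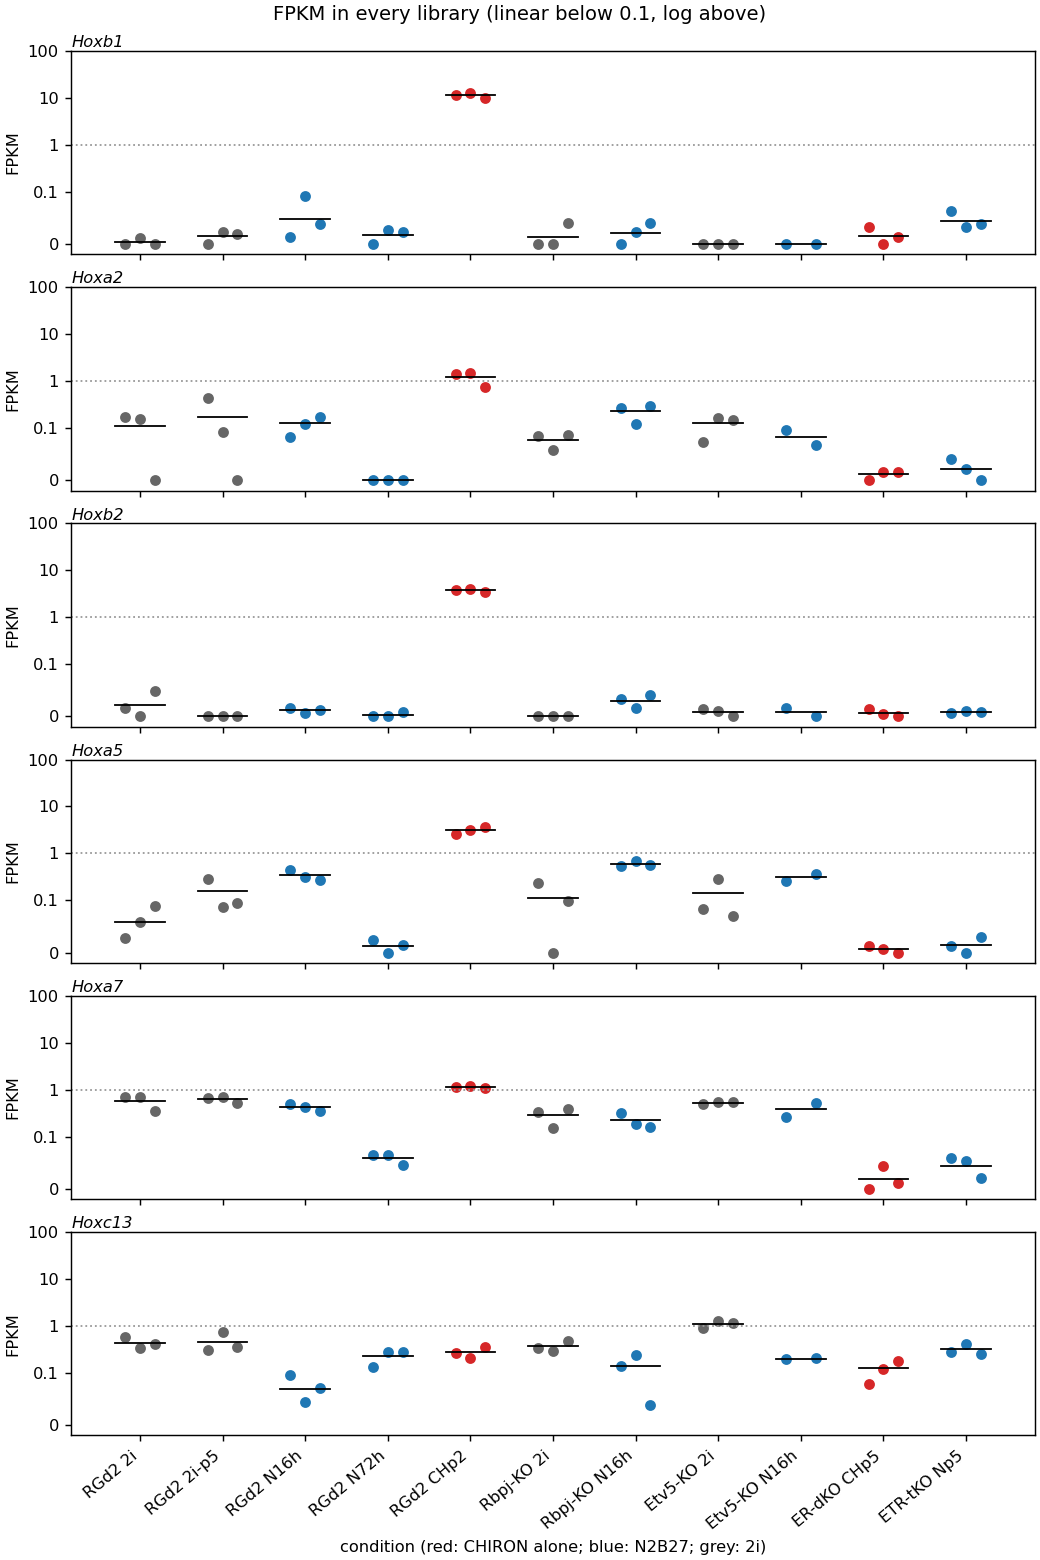
FPKM of the 6 described Hox genes (panels, vertical axis linear below 0.1 and logarithmic above) in each library (points) by condition, with the mean as a bar and FPKM 1 as a dotted line. Hoxb1 and Hoxb2 are above 1 in the 3 CHp2 libraries and below 0.1 in all others.

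The other 32 *Hox* genes stayed under 1 FPKM on average in every condition, and the highest of them in CHp2 was *Hoxa4* at 0.527 FPKM. In CHp2, 12 of the 32 averaged 0.1 FPKM or more and 6 had no count, whereas at N72h 0 of 32 averaged 0.1 and 17 had no count. With no minimum on the level, 17 of 38 *Hox* genes passed the test as higher in CHp2 and 0 as lower, where 22 were tested, against 17.3% higher and 13.3% lower of all 18892 genes with a call by p alone. Some of these genes entered the test because CHp2 gave them counts, such as *Hoxb3* with 69 of its 88 counts, so this count is no separate support. Others, such as *Hoxb13* and *Hoxc4*, had most of their counts in other conditions. Of the 38, 16 had too few counts to be tested in any comparison. Among the 32, *Hoxa3* had 90 counts in CHp2 and 0 at N72h (at least 54.0-fold), and *Hoxb3* had 69 and 0 (at least 41.4-fold). *Hoxd1*, a paralog of *Hoxb1*, had 44 counts in CHp2 and 2 at N72h, a ratio of 39.6 (interval 10.3 to 337).

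Levels in CHp2 were concentrated in low paralog groups, mostly through *Hoxb1* and *Hoxb2*, at means of 11.4 and 3.74 FPKM. Of the others in groups 1 to 4, only *Hoxa2* averaged 1 FPKM. The 11 genes reported from paralog groups 1 to 4 summed to 15.8 to 20.7 FPKM per library, the 11 of groups 5 to 8 to 4.52 to 5.34, and the 16 of groups 9 to 13 to 1.12 to 1.60. By cluster, CHp2 libraries held 14.3 to 18.2 FPKM from 10 *Hoxb* genes, 6.05 to 7.54 from 10 *Hoxa* genes, 0.825 to 1.48 from *Hoxd* and 0.393 to 0.651 from *Hoxc*. *Hoxc* was also higher than at N72h (0.132 to 0.359), but RGd2 in 2i held 1.34 to 1.71 FPKM of it, more than any CHp2 library. The order of levels did not follow paralog number strictly: *Hoxa5* (3.14 ± 0.509 FPKM, SD, n = 3) lay above *Hoxa3* and *Hoxa4*.

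**Figure D3:**
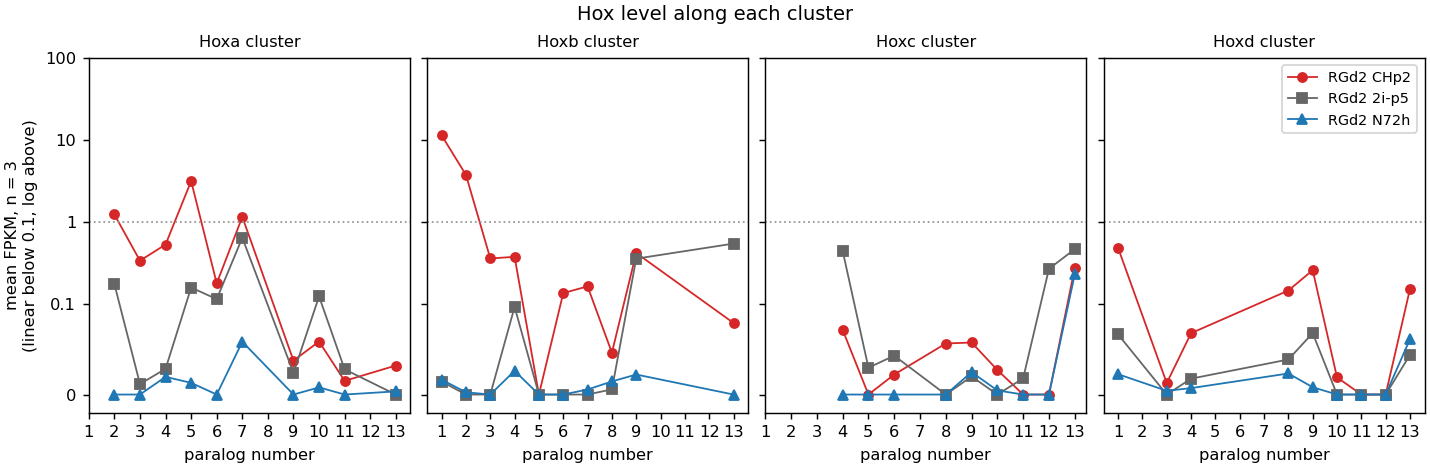
Mean FPKM (n = 3, linear below 0.1, logarithmic above) against paralog number in each cluster for RGd2 in CHp2, 2i-p5 and N72h, with FPKM 1 dotted. CHp2 peaks at paralog 1 in Hoxb (11.4) and, of the Hoxa genes plotted, at paralog 5 (3.14), and no Hoxc or Hoxd gene reaches 1.

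Other genes of the pathway were taken from fixed lists, which were chosen with results of these data known. Between CHp2 and N72h 19.9% of all genes at 1 FPKM were called higher and 17.3% lower. The list counts are out of all genes of a list, at 1 FPKM or not. For these lists, rose and fell mean higher and lower in CHp2 than at N72h, not a change from 2i. Of 8 Cdx, ParaHox and Evx genes, 3 rose in CHp2 against N72h and 0 fell: *Cdx1* (log2 9.49), *Cdx2* (7.65) and *Cdx4* (4.83), the Cdx factors that act on *Hox* enhancers. No gene of this list averaged 1 FPKM at N72h, so the level minimum allowed calls in this direction only. Against 2i-p5 *Cdx1* (2.16), *Cdx2* (1.61) and *Cdx4* (4.53) were also called higher in CHp2. Of 9 *Hox* cofactor genes, 7 of them at 1 FPKM in either group, 2 rose and 0 fell, *Meis2* (6.08) and *Meis3* (0.89), TALE homeodomain partners. As a list the cofactors did not shift, with a median log2 difference of 0.044 against 0.045 for all genes tested. *Meis2* was not called against 2i-p5 (0.40, edgeR adjusted p = 0.232). It was at 3.31 to 3.53 FPKM in 2i-p5, 3.99 to 4.30 in CHp2 and 0.0259 to 0.104 at N72h. *Meis3* was called higher in CHp2 than in 2i-p5 (3.21). Of 15 Wnt target genes, 10 rose and 0 fell, led by *Cdx1*, *T* (brachyury, 9.38) and *Fgf8* (9.26). The lists overlap: *Cdx1* is counted in the Cdx list too, and these 3 genes also lead the caudal and streak list below. Their counts are therefore not separate results. The retinoic acid genes, 17 in number, were mixed, with 2 higher (*Rxra*, 0.61 and *Rara*, 0.58) and 2 lower (*Dhrs3*, -1.35 and *Crabp2*, -0.75). *Rxra* and *Rara* are receptors, *Dhrs3* lowers retinaldehyde and *Crabp2* carries retinoic acid.

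Of 23 Polycomb and Trithorax genes, 3 rose (*Rbbp7*, 1.17, *Eed*, 0.69 and *Mtf2*, 0.63) and 2 fell (*Cbx2*, -0.61 and *Ezh1*, -0.37), all by less than the *Hox* genes. The median log2 difference of all genes tested was 0.05. Cell type markers also moved: 9 of 19 caudal epiblast and primitive streak genes rose and 0 fell, 8 of 8 naive genes rose (*Tbx3*, 3.18, *Zfp42*, 2.81 and *Tfcp2l1*, 2.77), 1 of 4 pluripotency genes rose (*Sox2*, 1.28) and 2 fell (*Utf1*, -0.83 and *Pou5f1*, -0.26). Against this, 2 of 8 neural genes fell (*Nes*, -2.17 and *Tubb3*, -1.70) and 2 of 8 extraembryonic endoderm genes fell (*Gata6*, -2.63 and *Dab2*, -2.59). Of 8 trophoblast genes 1 rose (*Tfap2c*, 5.06). Against 2i-p5, 8 of 8 naive genes were called lower in CHp2 and 0 higher, with shares over all genes at 1 FPKM of 13.6% and 28.6%. Also lower than in 2i-p5 were *Sox2* (-0.70), *Pou5f1* (-0.32), *Tubb3* (-0.77), *Eed* (-0.38), *Mtf2* (-0.39) and *Ezh1* (-0.39). Higher were *Utf1* (1.10), *Nes* (1.62) and *Rbbp7* (0.87), while *Tfap2c*, *Cbx2*, *Gata6* and *Dab2* were not called. The summed caudal and streak level was 260 to 278 FPKM in CHp2 and 2.97 to 3.30 at N72h, with *Msgn1* at 0 at N72h. No caudal or streak gene averaged 1 FPKM at N72h, so that this list could only be called higher, and nothing is read from its count. Neural markers summed to 21.6 to 23.9 FPKM in CHp2 and 78.1 to 93.5 at N72h, with *Pax3* and *Zic1* at 0 there. Most of the N72h sum was *Nes* (43.8 to 49.7 FPKM) and *Tubb3* (32.3 to 42.1). Trophoblast markers summed to 18.8 to 24.6 FPKM in CHp2 and 3.58 to 4.64 at N72h, most of it *Tfap2c* in CHp2 (16.9 to 21.1, against 0.559 to 0.635), while the median log2 difference of the list was -0.60. Extraembryonic endoderm markers summed to 1.37 to 2.36 FPKM in CHp2 and 5.07 to 15.6 at N72h. None of them averaged 1 FPKM in CHp2, so that they could only be called lower. In bulk libraries fewer cells of a type and less RNA per cell cannot be told apart, and the part of these markers in the *Hox* levels was not tested.

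Against the earlier N2B27 time, N16h, the same 5 genes were higher in CHp2 and 0 were called lower (*Hoxa10*, below 1 FPKM in both groups, fell by the test alone; 1 gene was lower at an unadjusted p under 0.05 by edgeR and 1 by DESeq2). Background calls were 28.2% higher and 22.8% lower. Without the FPKM minimum 12 *Hox* genes were higher and 1 lower, where the shares of all genes tested were 26.6% and 18.5%. *Hoxb1* was at 0.0127, 0.0922 and 0.0373 FPKM at N16h, and the log2 difference was 7.74 (SE 0.44, edgeR adjusted p = 5.02e-17). *Hoxb2* was also under 0.1 FPKM in every N16h library and differed by 8.27. The smaller differences were those of *Hoxa2* (3.36), *Hoxa5* (3.21) and *Hoxa7* (1.46), genes with some expression at N16h: *Hoxa5* was at 0.439, 0.308 and 0.277 FPKM and *Hoxa7* at 0.491, 0.432 and 0.346.

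Setting CHp2 against 2i-p5 compares CHIRON alone with CHIRON and the MEK inhibitor, with passage number differing too. All 5 genes were called higher and 0 lower, against a background of 28.6% higher and 13.6% lower and a median of all genes of 0.17. Without the FPKM minimum 10 *Hox* genes were higher and 3 lower, where the shares of all genes tested were 26.7% and 10.7%. The 3 lower genes were below 1 FPKM (3 also at an unadjusted p under 0.05 by edgeR and 3 by DESeq2), and were looked up after their values were seen: *Hoxc4* (-2.53), *Hoxb13* (-2.71) and *Hoxc12*, which had 13 counts in 2i-p5 and 0 in CHp2 (at least 3.62-fold lower). *Hoxb2* had no count in 2i-p5, so that CHp2 was at least 236-fold higher, and *Hoxb1* had 2 counts there (ratio 720, interval 199 to 5952). *Hoxa5* differed by 4.64 and *Hoxa2* by 3.34 on the log2 scale. *Hoxa2* had 7, 3 and 0 counts in the 2i-p5 libraries, and its difference was 4.87 without 2i-p5 replicate 1 and 2.56 without replicate 3, called both times. *Hoxa7*, at 0.676, 0.703 and 0.532 FPKM in 2i-p5, differed by only 0.98 (SE 0.38, edgeR adjusted p = 0.0406). This call was lost under 8 of 12 alternatives, whose adjusted p ranged from 0.00405 to 0.144, including leaving out any 1 of the 6 libraries.

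**Figure D4:**
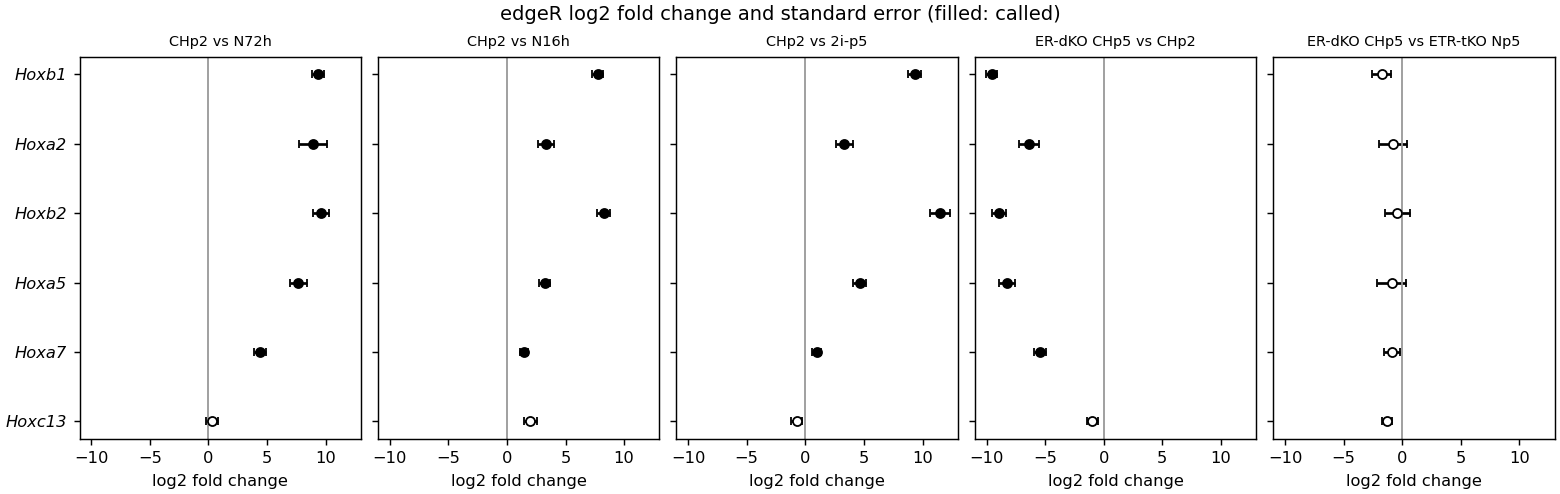
edgeR log2 fold change (points, horizontal axis) and standard error (bars) of the 6 described Hox genes in 5 comparisons, filled where the adjusted p is under 0.05 and a group mean is at least 1 FPKM. Fitted values against a group with no count depend on the prior count. In the 3 panels with CHp2 first, 5 filled genes lie to the right of 0, and ER-dKO CHp5 against CHp2 shows the same genes to the left.

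The mutants did not show the CHp2 pattern. ER-dKO CHp5 grew in CHIRON alone and ETR-tKO Np5 in N2B27, and none of the 38 genes averaged 1 FPKM in either, so that 0 were called by edgeR (0 higher and 3 lower at an unadjusted p under 0.05, and 0 and 3 by DESeq2). *Hoxb1* was at 0.0316, 0 and 0.0126 FPKM in ER-dKO and at 0.0622, 0.0333 and 0.0373 in ETR-tKO, so that the CHIRON cultures were no higher (log2 -1.77, edgeR adjusted p = 0.139). By p alone *Hoxc13* (-1.31, adjusted p = 0.0263) and *Hoxd13* (-3.46, adjusted p = 0.00568), which was looked up after its values were seen, were lower in ER-dKO. Of all genes at 1 FPKM, 9.9% were called higher and 14.6% lower, and of all genes tested 7.22% and 14.6% by p alone. Medium and the *Tcf3* deletion changed together in this comparison.

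Between the 2 cultures in CHIRON alone, all 5 genes were lower in ER-dKO CHp5 than in CHp2 and 0 were higher (0 at an unadjusted p under 0.05 by edgeR and 0 by DESeq2). No *Hox* gene averaged 1 FPKM in ER-dKO, so that the level minimum allowed calls in this direction only, and nothing is read from the count. Over all genes 28.3% were called higher and 21.3% lower. Without the minimum 0 *Hox* genes were higher and 15 lower, with 21.5% and 23.2% of all genes tested. The log2 differences were -9.57 for *Hoxb1* (SE 0.50, edgeR adjusted p = 4.80e-18), -8.93 for *Hoxb2*, -8.25 for *Hoxa5*, -6.39 for *Hoxa2* and -5.47 for *Hoxa7*. *Hoxb1* had 4 counts and *Hoxb2* 3 counts in all over the ER-dKO libraries. Genotype and passage number both differ between these groups.

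The difference between the CHIRON and N2B27 cultures was also compared between the pairs, as CHp2 against N72h in RGd2 minus ER-dKO CHp5 against ETR-tKO Np5. The mutant pair differs in the *Tcf3* deletion as well as in medium, so that it gives no medium effect of its own, and the parts cannot be told apart. The difference of the log2 changes was 11.09 for *Hoxb1* (SE 1.18, edgeR adjusted p = 2.39e-09), 10.04 for *Hoxb2*, 9.73 for *Hoxa2*, 8.55 for *Hoxa5* and 5.32 for *Hoxa7*. All 5 passed the test and 0 went the other way (0 at an unadjusted p under 0.05 by edgeR and 0 by DESeq2), but they met the level minimum through CHp2 alone and nothing is read from the count. The background was 16.1% higher and 8.04% lower with a median of 0.13. Without the minimum 11 *Hox* genes were higher and 0 lower, with 14.5% and 5.96% of all genes tested. The *Hoxa2* call was lost without ETR-tKO replicate 13 (adjusted p = 0.0524, range over alternatives 8.24e-06 to 0.0524) and that of *Hoxa5* without ETR-tKO replicate 15 (adjusted p = 0.0703, range 4.86e-06 to 0.0703).

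Pooling both CHIRON conditions against all 5 N2B27 conditions, with conditions weighted equally, 2 genes were called higher and 0 lower: *Hoxb1* (4.49, SE 0.81) and *Hoxb2* (3.90, SE 0.80). The background was 20.1% higher and 24.9% lower, or 17.7% and 21.2% of all genes tested with no FPKM minimum, by which 7 *Hox* genes were higher and 1 lower, and 2 *Hox* genes were lower at an unadjusted p under 0.05 by edgeR and 2 by DESeq2. The pooled sides overlapped for both, because the ER-dKO libraries lay among the N2B27 libraries. *Hoxa2* (1.61, adjusted p = 0.0839), *Hoxa5* (0.60, adjusted p = 0.633) and *Hoxa7* (0.08, adjusted p = 0.922) did not pass edgeR's test when pooled. The value of each pooled difference thus mixes a large effect in RGd2 with ER-dKO values at the level of N2B27 cultures.

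The order of levels over the 11 conditions put CHp2 first for 5 of the 6 described genes, with no overlap with the next condition. *Hoxb1* fell from 11.4 ± 1.37 FPKM (SD, n = 3) in CHp2 to 0.0474 ± 0.0407 in RGd2 N16h, the next, and *Hoxb2* from 3.74 ± 0.298 to 0.0297 ± 0.0131 in Rbpj-KO N16h. *Hoxa5* had its next levels in N16h cultures, at 0.607 ± 0.0889 FPKM in Rbpj-KO and 0.341 ± 0.0862 in RGd2. *Hoxa7* had them in 2i, at 0.637 ± 0.092 FPKM in 2i-p5 and 0.582 ± 0.202 in RGd2 2i, ranges that overlapped. *Hoxc13* was highest in Etv5-KO 2i (1.09 ± 0.173), followed by 2i-p5 (0.463 ± 0.235) and RGd2 2i (0.442 ± 0.126), whose ranges overlapped.

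As RGd2 cells left 2i, single *Hox* genes below 1 FPKM changed in either direction at N16h. At N16h against 2i, 0 of the 38 averaged 1 FPKM in either group and 0 were called by edgeR (4 higher and 7 lower at an unadjusted p under 0.05, and 4 and 6 by DESeq2), while 8.63% of genes were called higher and 37.4% lower and the median of all genes was -0.23. By p alone 2 of the 22 *Hox* genes tested were higher and 6 lower. That is near the 8.57% and 29% of all genes tested, so nothing is read from these counts. *Hoxa5* was higher (2.53, adjusted p = 0.00296), from 0.0288, 0.0591 and 0.089 FPKM in 2i, and so was *Hoxa10* (3.78). *Hoxc13* was lower (-2.97, adjusted p = 5.94e-06), at 0.0957, 0.0435 and 0.0704 FPKM against 0.581, 0.338 and 0.407. At N72h against 2i-p5 no gene was higher (0 at an unadjusted p under 0.05 by edgeR and 0 by DESeq2) and 9 were lower by p alone, *Hoxa7* among them (-3.44, adjusted p = 4.46e-07), where by the same rule 30.5% of all genes tested were higher and 19.6% lower. With the FPKM minimum 34.2% of genes were called higher and 22.9% lower, and the median of all genes was 0.11.

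Both passage 5 mutants also held less *Hoxa7* than RGd2 at the same passage in 2i, below 1 FPKM in all 3 groups. It was at 0, 0.0438 and 0.0102 FPKM in ER-dKO CHp5 and at 0.0586, 0.0538 and 0.0201 in ETR-tKO Np5. Against 2i-p5 the log2 differences were -4.49 (edgeR adjusted p = 6.61e-09) and -3.58 (edgeR adjusted p = 2.47e-07). With the level minimum 0 *Hox* genes were called by edgeR in either comparison (0 higher and 14 lower at an unadjusted p under 0.05 for ER-dKO and 0 and 12 for ETR-tKO, and 0 and 12 and 0 and 10 by DESeq2). The background was 33.9% higher and 8.43% lower with a median of 0.20 for ER-dKO, and 37.7% higher and 9.53% lower with a median of 0.27 for ETR-tKO. By p alone 0 *Hox* genes were higher and 10 lower in ER-dKO, where 24.9% and 8.92% of all genes tested were, and 0 and 8 in ETR-tKO, where 30.8% and 8.23% were.

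At N16h the single knockouts had 0 *Hox* genes at 1 FPKM and 0 called by edgeR. In Rbpj-KO 2 were higher and 0 lower at an unadjusted p under 0.05 (3 and 1 by DESeq2), against a background of 18.8% higher and 3.41% lower (14.5% and 3.38% by p alone) and a median of 0.15. *Hoxa5* there was at 0.536, 0.706 and 0.578 FPKM, above every RGd2 library, but the log2 difference of 0.91 did not pass edgeR's test (adjusted p = 0.205). In Etv5-KO 3 were higher and 1 lower at an unadjusted p under 0.05 (3 and 1 by DESeq2), with a background of 29.3% higher and 3.24% lower (22.6% and 3.19% by p alone) and a median of 0.24. By p alone *Hoxc13* was higher in Etv5-KO (1.74, adjusted p = 0.0167), at 0.197 and 0.205 FPKM. *Hoxb1* had 1, 10 and 2 counts in the RGd2 libraries and 0 in Etv5-KO, and without RGd2 N16h replicate 23, which held 10, both groups were at or under the floor of 3 counts, so no fold is given.

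In 2i, *Hoxc13* was at 0.904, 1.24 and 1.13 FPKM in Etv5-KO and at 0.581, 0.338 and 0.407 in RGd2, a log2 difference of 1.05 (SE 0.39, edgeR adjusted p = 0.0402). That call was lost under 5 of 11 alternatives (adjusted p from 0.00744 to 0.196). *Hoxb13*, also at the late end of its cluster, averaged 0.998 FPKM in Etv5-KO 2i, just under the threshold. No *Hox* gene was called lower in Etv5-KO 2i (0 at an unadjusted p under 0.05 by edgeR and 0 by DESeq2). Background calls were 6.14% higher and 27.9% lower (5.38% and 22.8% by p alone), and the median of all genes was -0.23. Rbpj-KO 2i had no called *Hox* gene by edgeR (0 higher and 4 lower at an unadjusted p under 0.05, and 0 and 3 by DESeq2) with 5.24% of genes called higher and 6.12% lower (4.1% and 5.9% by p alone). By p alone *Hoxa7* was lower there (-1.22, adjusted p = 0.0448), at 0.338, 0.153 and 0.387 FPKM, although its range overlapped that of RGd2 (0.349 to 0.704).

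The response to N16h was not called as different between either single knockout and RGd2 for any of the 38 genes by edgeR. In Rbpj-KO 2 were higher and 0 lower at an unadjusted p under 0.05 (3 and 0 by DESeq2), where 3.79% of genes were called higher and 0.238% lower (2.9% and 0.185% by p alone) and the median of all genes was 0.22. In Etv5-KO 1 was higher and 0 lower (1 and 0 by DESeq2), where 36.7% were called higher and 0.531% lower (27.3% and 0.614% by p alone) and the median of all genes was 0.47.

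Noncoding RNAs of the clusters were measured strand by strand. *Hotairm1*, a noncoding RNA of the *Hoxa* cluster, was at 10.2, 15.9 and 11.6 FPKM in CHp2 and at 1.24 or less in every other library. It rose by 7.36 on the log2 scale against N72h (SE 0.51, edgeR adjusted p = 6.04e-15) and by 4.72 against 2i-p5. *Halr1*, which starts outside the cluster (chr6:52102949-52113684, plus strand), followed another order. It was highest at N16h (94.3, 97.5 and 99.9 FPKM) and lower in CHp2 (56.1, 47.1 and 55.3), in 2i (20.3 to 23.7) and at N72h (0.576 to 0.953). Of 11 noncoding RNAs of the *Hox* clusters, these were the 2 called between CHp2 and N72h. None of the 11 averaged 1 FPKM at N72h, so that they could only be called higher in CHp2. Between ER-dKO and ETR-tKO *Halr1* was lower by log2 -1.62, and *Hotairm1* did not pass edgeR's test (-1.19, adjusted p = 0.0785).

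Wnt targets and Cdx genes were mostly lower in ER-dKO CHp5, in which *Hox* genes were low, than in CHp2. Of 15 Wnt targets 3 were higher and 7 lower, and of 8 Cdx, ParaHox and Evx genes 0 were higher and 3 lower. Over all genes at 1 FPKM, 28.3% were called higher and 21.3% lower. The median log2 differences of these lists were -1.45 and -2.28, and that of all genes tested was 0.02. *Axin2*, a direct target of beta-catenin that was looked up after its values were seen, was at 20.5, 18.1 and 18.2 FPKM in ER-dKO CHp5 and at 12.1, 12.8 and 12.6 in CHp2. *Cdx1* was at 10.2, 8.44 and 9.04 FPKM in ER-dKO against 0.715, 0.907 and 0.791 in ETR-tKO (log2 3.56), and *Cdx2* at 2.42, 1.84 and 1.73 against 0.0532, 0.0342 and 0.051 (log2 5.37). Both were lower than in CHp2, by log2 values of -1.68 and -1.70. RGd2 2i, with *Hoxb1* at 0 to 0.0119 FPKM, held *Cdx1* at 18.3 to 29.6 FPKM, *Cdx2* at 4.20 to 5.33 and *Axin2* at 17.6 to 22.9. In 2i-p5 *Cdx1* was at 7.53 to 8.52 FPKM and *Cdx2* at 1.96 to 3.19, so these levels with low *Hoxb1* were not particular to ER-dKO. *Cdx4* was at 0.062 to 0.179 FPKM in ER-dKO and at 0.435 to 1.62 in CHp2 (-3.06). *T* was also lower in ER-dKO than in CHp2 (-3.77), and so was *Fgf8* (-6.82), at 0.109 to 0.173 FPKM against 14.9 to 20.8.

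Over the fixed lists, 9 of 15 Wnt targets were higher and 0 lower in ER-dKO than in ETR-tKO, where the shares of all genes at 1 FPKM were 9.9% and 14.6%. The same comparison gave 2 of 8 Cdx, ParaHox and Evx genes higher and 0 lower, 4 of 19 caudal and streak genes higher and 1 lower, and 0 of 9 cofactors higher and 3 lower. No gene of the Cdx, ParaHox and Evx list averaged 1 FPKM in ETR-tKO, so that it could only be called higher. Retinoic acid genes gave 0 of 17 higher and 4 lower, neural genes 0 of 8 and 2, and Polycomb and Trithorax genes 2 of 23 and 4. Neural markers summed to 22.1 to 24.7 FPKM in ER-dKO and to 68.0 to 71.0 in ETR-tKO. Most of the ETR-tKO sum was *Tubb3* (55.5 to 59.0 FPKM). RGd2 summed to 48.4 to 57.9 FPKM in 2i and to 23.6 to 25.9 in 2i-p5. Caudal and streak markers summed to 63.7 to 70.1 FPKM in ER-dKO, to 16.3 to 17.8 in ETR-tKO and to 49.7 to 55.9 in 2i-p5. In the other 2i groups they summed to 75.9 to 92.5 FPKM (RGd2), 86.9 to 114 (Rbpj-KO) and 24.1 to 29.4 (Etv5-KO). Naive markers, by contrast, were higher in ER-dKO than in CHp2 for 8 of 8 genes. Their part in the low *Hox* level of ER-dKO was not tested.

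**Figure D5:**
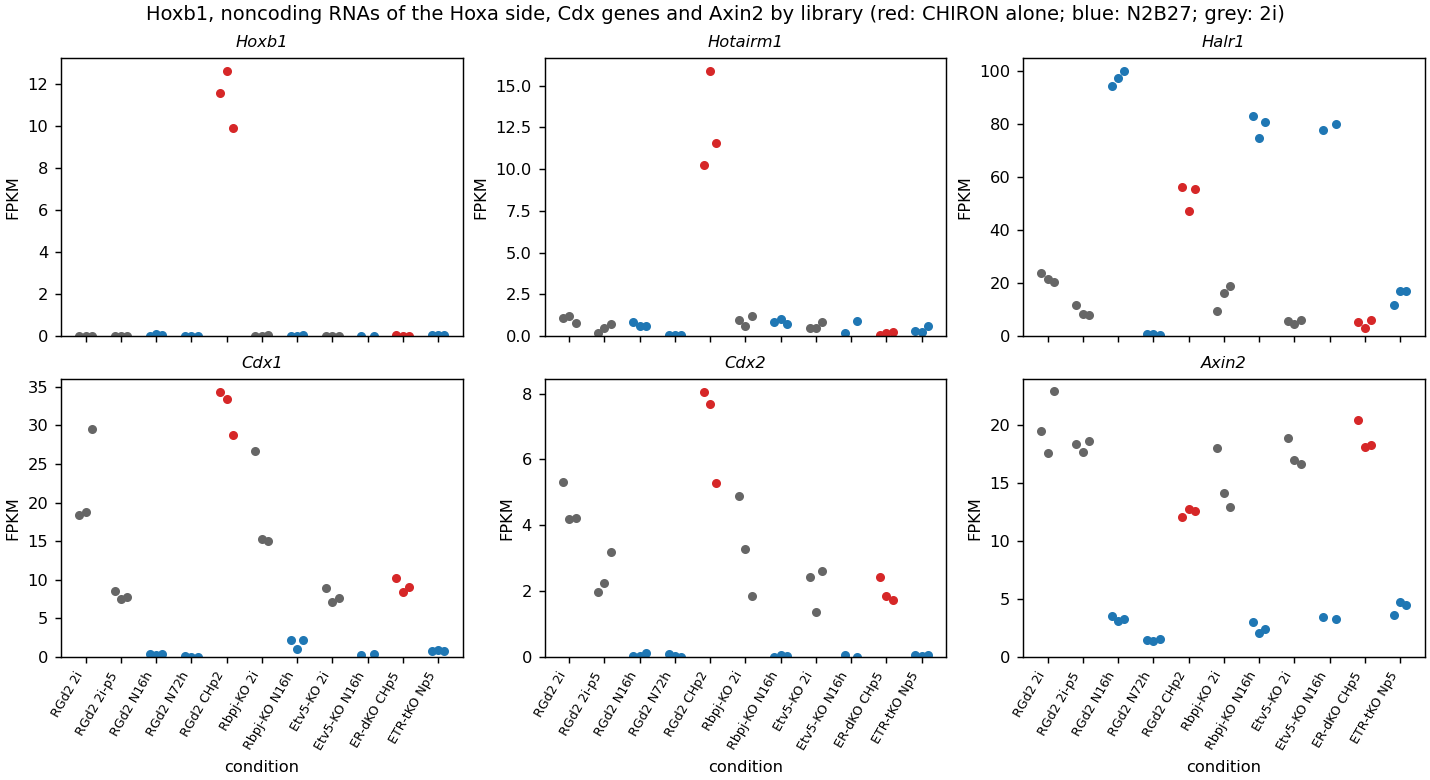
FPKM in each library (points) of Hoxb1, the noncoding RNAs Hotairm1 and Halr1, Cdx1, Cdx2 and Axin2 by condition, each panel on its own linear axis from 0. Hoxb1 and Hotairm1 peak in CHp2, and Halr1 peaks in the N16h cultures. Cdx1, Cdx2 and Axin2 are well above 0 in ER-dKO CHp5, where Hoxb1 is at 0 to 0.0316. They are also well above 0 in the 2i groups, such as RGd2 2i, where Hoxb1 is at 0 to 0.0119.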

How the data were processed

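RNA was sequenced from 32 cultures with strand-specific libraries to which ERCC spike-in RNAs had been added. The values are raw counts per gene that the authors made and deposited. Per the labels and the study's methods, reads were trimmed with Trim Galore, aligned to mm10 with TopHat2 and counted by strand with featureCounts on Gencode annotation, with no versions given. The labels name both polyA RNA and rRNA depletion, so the selection of RNA is not settled here. Genes were named through the reference table, and the 193 IDs without a symbol held 0.02589% of counts. All sample columns were used.

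FPKM was computed here from counts, the gene length in the table and the total on genes. Tests used edgeR 4.0.16 in R 4.3.3 (glmQLFit, glmQLFTest) on the counts of all 32 libraries in 1 fit with a coefficient per condition. Size factors came from the 52 ERCC RNAs with counts in every library, as medians of their ratios, so log2 fold changes are per spike-in RNA, whereas FPKM is relative to total gene counts. After edgeR's filter on low counts 18892 genes were tested, 22 of the 38 *Hox* genes among them and 16 not. A gene was called at a Benjamini-Hochberg adjusted p under 0.05 with a mean of at least 1 FPKM in either group. Tests were two-sided. The scripts were tested on simulated data.

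Pairs of replicates differed by more than sampling noise (chi-square per gene 3.39 to 44.3), and none was counted as 1 sample. Replicate numbers do not recur between groups. The RGd2 groups share a parental and a clonal line, and deviations of the clonal library correlated between groups at 0.166 to 0.402 over 12151 genes, so line was tried as a replicate block among RGd2 groups. Clones of the single knockouts recur between 2i and N16h, their deviations correlated at -0.0591 to 0.113 over 11530 genes, and clone was also tried as a block there. Where the labels do not state separate cultures, p-values measure only the spread between these libraries. The labels give no sequencing batch.

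Some genes that the symbols or lists take in are not reported here, and counts and sums leave them out. The *Hox* genes, gene lists and tests were chosen with earlier results of these data known. *Hox* genes were described in detail where they averaged at least 1 FPKM in any condition or were called in CHp2 against N72h or in ER-dKO against ETR-tKO, and from each other list up to 3 genes per direction with the largest change in CHp2 against N72h. The comparisons in 2i of each single knockout with RGd2, the 3 tests of differences between responses, the list of noncoding RNAs, and the letters for PBX-HOX, octamer and SOX were added after values or sequences had been seen. *Axin2* and the levels of *Cdx1* and *Cdx2* by library were looked up in the same way. Alternatives were DESeq2 1.42.0, TMM and median-of-ratios scaling on gene counts, no filter on low counts, no FPKM minimum, other FPKM thresholds, a fit of the compared libraries only, the block, and leaving out each library. Sequences came from RefSeq (GRCm38.p6 promoters, held for 22 *Hox* genes and 4 of the 6 described) and from GRCm38 with Gencode transcripts. Figures were drawn in Python 3.11.15 with matplotlib 3.10.9.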

Additional observations from a re-analysis of the deposited data

Results flagged for a closer look

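The log2 difference between CHIRON and N2B27 cultures of RGd2 (CHp2 against N72h) was larger than that between the passage 5 mutants (ER-dKO in CHIRON against ETR-tKO in N2B27) for 5 *Hox* genes, by 9.73 for *Hoxa2*, 8.55 for *Hoxa5*, 5.32 for *Hoxa7*, 10.04 for *Hoxb2* and 11.09 for *Hoxb1*. These differences were tested in the edgeR fit across all genes, in which ETR-tKO also lacks *Tcf3* and the passage numbers differ, so the parts of medium and genotype cannot be told apart.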

How the results depend on the processing

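Of 28 log2 differences of named *Hox* genes, 24 were called under every alternative run and 4 were not under at least 1, and none changed sign. The replicate block by RGd2 line changed no call, nor did a replicate block by clone in the responses of the single knockouts (0 called higher and 0 lower, as without it), which was chosen after seeing the data. Without the FPKM minimum the *Hox* genes called higher and lower were 17 and 0 (CHp2 against N72h), 12 and 1 (CHp2 against N16h), 0 and 2 (ER-dKO against ETR-tKO), 7 and 1 (pooled CHIRON against N2B27), 10 and 3 (CHp2 against 2i-p5), 0 and 9 (N72h against 2i-p5), 0 and 15 (ER-dKO against CHp2), 0 and 10 (ER-dKO against 2i-p5), 0 and 8 (ETR-tKO against 2i-p5), 2 and 6 (N16h against 2i), 3 and 1 (Etv5-KO against RGd2 at N16h), 2 and 0 (the same in 2i), 0 and 1 (Rbpj-KO against RGd2 in 2i), 11 and 0 (RGd2 minus mutants) and 1 and 0 (Etv5-KO minus RGd2). The shares of all genes by the same rule stand beside each comparison above. With no filter on low counts 0 rather than 1 were higher in Etv5-KO 2i. At a threshold of 0.5 FPKM, 11 *Hox* genes reached it in any condition, 6 in CHp2, 6 in Etv5-KO 2i, 2 in Rbpj-KO 2i, 1 in Rbpj-KO N16h, 3 in RGd2 2i and 2 in 2i-p5. Asking for 1 FPKM in every library left 0 in Etv5-KO 2i. Leaving out 1 library gave 1 to 2 genes at 1 FPKM in Etv5-KO 2i (2 without replicate 26 or 27) and 0 to 1 called higher there (0 without RGd2 2i replicate 32 or 33). *Hoxa7* in CHp2 against 2i-p5 was at 0.81 with TMM (adjusted p = 0.0718) and 0.84 with gene size factors (adjusted p = 0.0610), within a range of 0.00405 to 0.144. The cause of these shifts was not tested. Depth limits what can be said of the *Hox* genes under 1 FPKM, since 17 of these 32 had no count at N72h.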

Other observations

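Some *Hox* genes below 1 FPKM had their higher levels in 2i rather than in CHIRON alone, and they were looked up after their values were seen. *Hoxc4* was at 0.862, 0.550 and 0.780 FPKM in RGd2 2i, at 0.640, 0.687 and 0.879 in Rbpj-KO 2i, at 0.0928, 0.0601 and 0.0605 in CHp2 and without counts at N72h. *Hoxb13* was at 1.15, 0.970 and 0.873 FPKM in Etv5-KO 2i, at 0.686, 0.570 and 0.367 in 2i-p5 and at 0.072, 0.0233 and 0.141 in CHp2. *Hoxb9* did not separate the same way: it was at 0.535, 0.517 and 0.519 FPKM in RGd2 2i and at 0.494, 0.540 and 0.211 in CHp2, ranges that overlapped. Against 2i, N16h libraries were lower by the edgeR test without the FPKM minimum for *Hoxc4* (-2.68, adjusted p = 1.82e-05) and *Hoxb13* (-2.80, adjusted p = 0.000762).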
